A study of Saccharomyces cerevisiae with 20 samples.

Results

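YAL037C-B, YCR013C and YKL153W are 3 of the 7127 gene features for which ribosome footprints of budding yeast, Saccharomyces cerevisiae, were counted. They were chosen by gene ID because each lies on the strand opposite a glycolytic gene: YAL037C-B opposite CDC19, YCR013C opposite PGK1 and YKL153W opposite GPM1. All 3 held counts in each of the 20 libraries. They ranked 1, 2 and 3 by counts, and together they held 1677666 of 4993355 counts, or 33.6%. The deposited values are RSEM expected counts, estimated read numbers per feature that are not scaled for depth, and TPM, which divide by feature length.

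The genes on the other strand encode enzymes of the lower part of glycolysis, the pathway that turns glucose into pyruvate and provides most of the ATP of fermenting yeast. Pgk1 (phosphoglycerate kinase) transfers a phosphate from bisphosphoglycerate to ADP. Gpm1 (phosphoglycerate mutase) moves the phosphate of the product to another carbon. Cdc19 (the main pyruvate kinase) makes pyruvate and ATP in the last step. All 3 genes are among the most heavily transcribed and translated of growing yeast. The deposited counts do not separate reads of a gene from reads of the feature opposite it, so a count is given under the name it was deposited with and is not read as translation of YAL037C-B, YCR013C or YKL153W.

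The cells were fmt1 yeast, in which the gene of the mitochondrial formyltransferase is named as altered, carrying the E. coli methionyl-tRNA formyltransferase (EcFMT) or its R42L form. This enzyme formylates the methionine on initiator tRNA. Groups labelled MTFi and MTF, abbreviations that the labels do not expand and whose strain is not stated further, had 2 libraries each. The other 16 libraries, labelled as fmt1 deletion cells, came from 4 strains with each form in 2 replicates. The arf1D label refers to Arf1, a GTPase of vesicle transport. The hrc1D label is kept as spelled, and HCR1, which it resembles, encodes the j subunit of initiation factor eIF3. NIP1_depl refers to Nip1, the c subunit of eIF3, and RLI1_depl to Rli1, an ATPase that splits ribosomes after termination. How Nip1 and Rli1 were depleted is not given. Growth was at 30 °C in synthetic complete medium until the A600 was about 0.5, and 80S monosomes from RNase I digests were collected on sucrose gradients. The labels do not say that replicates were separate cultures, so p-values measure the spread between these libraries, which may be technical. RNA sequencing is not analysed here, so fewer footprints per transcript and fewer transcripts cannot be told apart.

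Library totals ran from 58090 to 505676 expected counts. They were lowest in the strains where the 3 features were lowest: 386355 to 505676 in arf1D against 58090 to 123204 in RLI1_depl. The mean fragment length implied by the files lay between 28.22 and 29.27 nt over the libraries. It averaged 28.23 and 28.26 nt in the arf1D groups and 28.8 and 28.81 nt in the RLI1_depl groups. The mean was 28.97 nt in MTFi and longest, 29.24 nt, in MTF, where the 3 features took 39.85 and 36.93% of the counts. Fragment length thus did not follow the 3 features over the groups. The share of counts on RefSeq open reading frames (ORFs) ran the other way to the library totals. It was 1.211% ± 0.00283 (SD, n = 2) in MTFi and 1.499% ± 0.0643 in arf1D with R42L. In RLI1_depl with R42L it was 20.38% ± 0.297. The part of these values in the differences between strains was not tested.

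The genes themselves held almost no counts under their own names. CDC19 (R64, chromosome I, 71786 to 73288, 1503 nt) had 2 counts over all libraries against 854552 on YAL037C-B, a feature of 975 nt. PGK1 (III, 137746 to 138996, 1251 nt) had 28 against 428148 on YCR013C, of 648 nt. GPM1 (XI, 163642 to 164385, 744 nt) had 18 against 394966 on YKL153W, of 510 nt. The estimates on the 3 features were nearly whole reads: RSEM's posterior standard deviation was at most 2.09, 1.88 and 1.44 counts in any library. Coordinates of the 3 features are not used here, so how much of each gene the feature covers was not measured. Flanking genes on these chromosomes were low too. Around CDC19, CYC3 (a heme lyase gene) had 22 counts, YAL037W 13 and YAL037C-A 122.2, and around PGK1, ADP1 had 3 and POL4 (a DNA polymerase gene) 6. Beside GPM1, NNR2 had 103.

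For PGK1 and GPM1 the few own-name counts made up a larger share of gene and feature together in RLI1_depl than in arf1D. Counts on the feature enter this share, so it rises when they fall. For CDC19 the counts were too few to compare. For PGK1 this share was 0.005212% (9 counts, 95% Clopper-Pearson interval 0.002383 to 0.009894%) in arf1D and 0.1989% (10 counts, interval 0.09543 to 0.3655%) in RLI1_depl, over 4 libraries each. Per 1e+06 counts of all features PGK1 was at 5.286 (interval 2.417 to 10.03) in arf1D and 26.44 (12.68 to 48.62) in RLI1_depl, and 6 of the 10 counts came from 1 library. GPM1 had 2 counts in arf1D, 7 in NIP1_depl (5 of them in 1 library) and 6 in RLI1_depl. CDC19 had 0 counts in arf1D, MTFi, MTF and RLI1_depl and 1 each in hrc1D and NIP1_depl. The interval allows CDC19 up to 0.001046% of both in arf1D and 0.01513% in RLI1_depl. Intervals cover counting error only, and reads without molecular identifiers are not independent molecules.

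YAL037C-B, opposite the pyruvate kinase gene, was the most abundant feature. It took 19.65 and 19.9% of the library in MTFi and 19.7 and 19.59% in MTF. In arf1D it took 20.57 and 20.67% with EcFMT and 20.8 and 20.85% with R42L. In hrc1D the values were 16.32 and 16.42% with EcFMT and 15.81 and 16.66% with R42L. The 4 arf1D libraries were thus the highest, MTFi and MTF lay just under them, and hrc1D lay below with no overlap. The depleted strains were far lower. NIP1_depl had 8.109 and 7.591% with EcFMT and 7.665 and 7.709% with R42L, and RLI1_depl had 6.298 and 6.63% with EcFMT and 6.363 and 6.399% with R42L. The highest library was 3.311 times the lowest. Group means fell in the order arf1D with R42L (20.83% ± 0.036, SD, n = 2), arf1D with EcFMT (20.62% ± 0.0718), MTFi (19.77% ± 0.176), MTF (19.65% ± 0.0776), hrc1D with EcFMT (16.37% ± 0.069), hrc1D with R42L (16.24% ± 0.602), NIP1_depl with EcFMT (7.85% ± 0.366), NIP1_depl with R42L (7.687% ± 0.0314), RLI1_depl with EcFMT (6.464% ± 0.235) and RLI1_depl with R42L (6.381% ± 0.026). Neighbours in this order overlapped between their libraries for MTFi and MTF and for the forms of hrc1D, NIP1_depl and RLI1_depl, but not for the forms of arf1D.

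YCR013C, opposite the phosphoglycerate kinase gene, varied most. It took 10.46 and 10.61% of the library in MTFi, and 9.929 and 7.992% in MTF. In arf1D it took 10.12% in both EcFMT libraries and 10.14 and 10.19% with R42L. In hrc1D it took 9.487 and 9.53% with EcFMT and 10.9 and 10.42% with R42L. MTF had the widest gap between replicates of any group, and both hrc1D libraries with R42L were above those of arf1D. NIP1_depl had 3.574 and 3.373% with EcFMT and 3.227 and 3.38% with R42L, and RLI1_depl had 1.217 and 1.284% with EcFMT and 1.422 and 1.42% with R42L. Both depleted strains lay below all other groups, RLI1_depl by far the lowest, and the highest library was 8.955 times the lowest. By group mean, hrc1D with R42L came first (10.66% ± 0.341, SD, n = 2), then MTFi (10.54% ± 0.106), arf1D with R42L (10.17% ± 0.034) and with EcFMT (10.12% ± 0.000685), hrc1D with EcFMT (9.509% ± 0.03) and MTF (8.96% ± 1.37). Then followed NIP1_depl with EcFMT (3.474% ± 0.142) and R42L (3.303% ± 0.109) and RLI1_depl with R42L (1.421% ± 0.00126) and EcFMT (1.251% ± 0.0472). The 2 highest groups overlapped, as did MTF with hrc1D with EcFMT and the forms of NIP1_depl, and other neighbours did not.

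YKL153W, opposite the phosphoglycerate mutase gene, took 9.546 and 9.537% in MTFi and 8.565 and 8.084% in MTF. In arf1D it took 10.37 and 10.45% with EcFMT and 10.25 and 10.45% with R42L. In hrc1D it took 7.058 and 6.903% with EcFMT and 7.779 and 7.808% with R42L. Unlike YCR013C, it was lower in all 4 hrc1D libraries than in arf1D, MTFi and MTF. It took 2.83 and 2.81% in NIP1_depl with EcFMT, 2.969 and 2.979% with R42L, 1.627 and 1.493% in RLI1_depl with EcFMT and 1.658 and 1.538% with R42L. Only the depleted strains were under 3%, and the highest library was 7.001 times the lowest. The order of group means was arf1D with EcFMT (10.41% ± 0.0524, SD, n = 2), arf1D with R42L (10.35% ± 0.14), MTFi (9.542% ± 0.00659), MTF (8.324% ± 0.34), hrc1D with R42L (7.794% ± 0.0207), hrc1D with EcFMT (6.98% ± 0.11), NIP1_depl with R42L (2.974% ± 0.00705), NIP1_depl with EcFMT (2.82% ± 0.0136), RLI1_depl with R42L (1.598% ± 0.0845) and RLI1_depl with EcFMT (1.56% ± 0.0948). The forms of arf1D and of RLI1_depl overlapped, and other neighbours in this order did not.

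**Figure D1:**
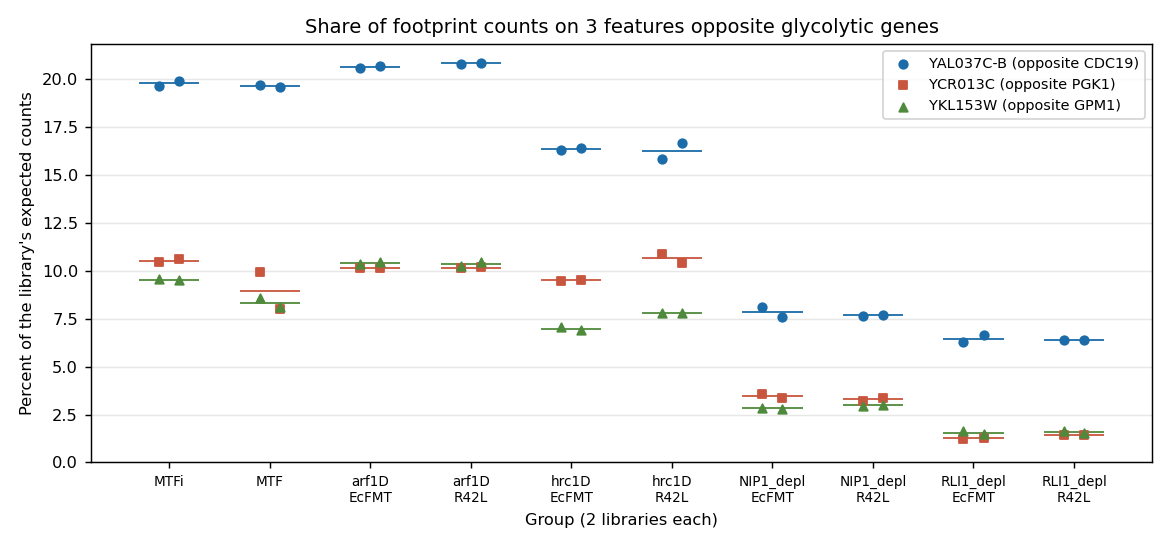
Percent of each library's expected counts (vertical axis) on YAL037C-B, YCR013C and YKL153W in the 10 groups (horizontal axis); points are libraries and lines are group means. All 3 features are lowest in the 8 libraries of NIP1_depl and RLI1_depl, and YCR013C and YKL153W swap order between groups.

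Per length the order of the 3 features was closer. In TPM, which divides each count by effective length, YAL037C-B was at 98463 ± 516 (SD, n = 2), YCR013C at 73798 ± 125 and YKL153W at 97608 ± 664 in arf1D with EcFMT. In RLI1_depl with EcFMT the levels were 25396 ± 1161, 7504 ± 353 and 12030 ± 619 TPM. YAL037C-B and YKL153W were thus almost level per length in arf1D and well apart in RLI1_depl, with YCR013C the lowest of the 3 in both groups.

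The 3 features together took 41.35% ± 0.211 (SD, n = 2) of the counts in arf1D with R42L, so the share of each depends on the others. Each feature was therefore also set against the summed counts of 7 features opposite ribosomal protein genes (RPL28, RPL8B, RPP0, RPS2, RPL10, RPL36B and RPL43A). Relative to this sum, YAL037C-B was at 1.074 ± 0.012 (SD, n = 4) over the EcFMT and R42L libraries of arf1D, 0.8069 ± 0.0281 over those of hrc1D, 0.3109 ± 0.0138 for NIP1_depl and 0.3214 ± 0.0277 for RLI1_depl. YCR013C was at 0.5254 ± 0.00531, 0.499 ± 0.034, 0.1356 ± 0.00763 and 0.0672 ± 0.0109 in the same strains. YKL153W was at 0.5377 ± 0.0087, 0.3656 ± 0.025, 0.1159 ± 0.00279 and 0.07911 ± 0.00906. The mean ratio in arf1D was 3.342 times that in RLI1_depl for YAL037C-B, 7.818 times for YCR013C and 6.797 times for YKL153W, against 3.226, 7.59 and 6.574 times in percent of the library. For arf1D over NIP1_depl the scales lay further apart: the ratios differed 3.454, 3.875 and 4.639 times, and the percentages 2.667, 2.993 and 3.583 times. On this scale YAL037C-B did not separate the depleted strains: its libraries ran from 0.3024 to 0.3315 in NIP1_depl and from 0.2867 to 0.3492 in RLI1_depl. YCR013C likewise did not separate hrc1D (0.4685 to 0.5317) from arf1D (0.5205 to 0.5329). MTFi lay at 0.9483 ± 0.00863 (SD, n = 2), 0.5053 ± 0.00516 and 0.4576 ± 0.000228 for the 3 features, and MTF at 0.8981 ± 0.0434, 0.411 ± 0.0808 and 0.3808 ± 0.0324.

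**Figure D2:**
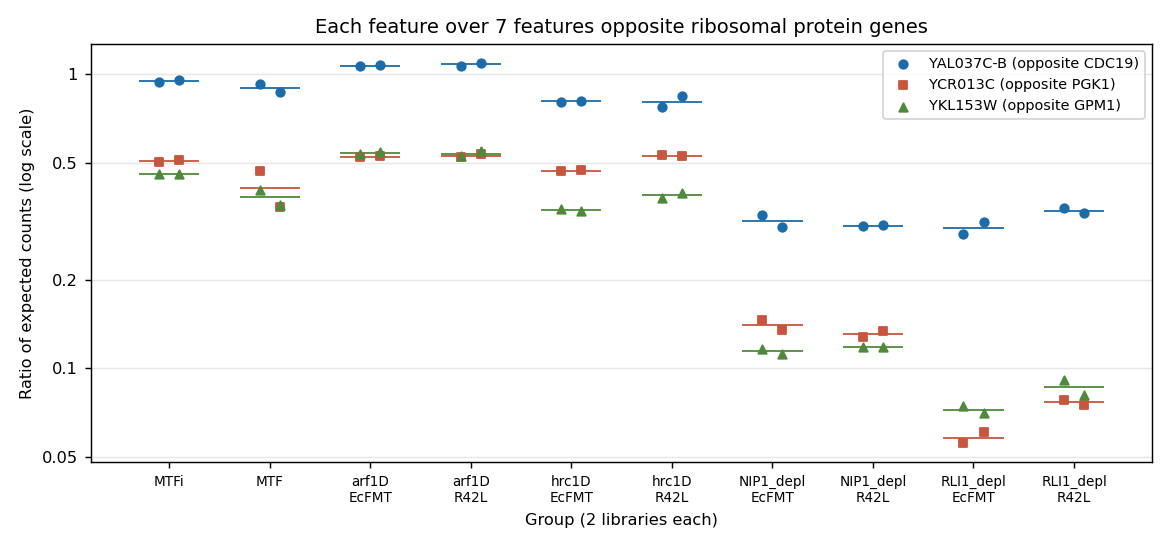
Ratio of each feature's counts to the summed counts of 7 features opposite ribosomal protein genes (log axis) in the 10 groups; points are libraries and lines are group means. YAL037C-B overlaps between NIP1_depl and RLI1_depl, while YCR013C and YKL153W sit lower in RLI1_depl.

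Ratios among the 3 features within a library do not depend on how libraries are scaled. YAL037C-B over YCR013C was 1.878 and 1.875 in MTFi, 1.984 and 2.451 in MTF, 2.032 and 2.042 in arf1D with EcFMT and 2.051 and 2.047 with R42L. It was 1.720 and 1.723 in hrc1D with EcFMT, 1.450 and 1.599 with R42L, 2.269 and 2.250 in NIP1_depl with EcFMT and 2.376 and 2.281 with R42L. In RLI1_depl it was 5.174 and 5.164 with EcFMT and 4.475 and 4.507 with R42L. The 4 RLI1_depl libraries stood apart from the other 16, whose highest value was 2.451, and hrc1D with R42L was lowest. The counting interval of a library was narrow beside these gaps even at the lowest depth, 4.150 to 4.826 for RLI1_depl with R42L replicate 1. The replicates of MTF differed by more than counting error, with intervals of 1.957 to 2.012 and 2.418 to 2.485, and so did those of hrc1D with R42L, with 1.424 to 1.478 and 1.568 to 1.631. Group means spanned 3.39-fold, from 1.525 ± 0.105 (SD, n = 2) to 5.169 ± 0.007.

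YAL037C-B over YKL153W rose over the strains from arf1D to RLI1_depl without the dip in hrc1D. It was 2.058 and 2.086 in MTFi, 2.300 and 2.424 in MTF, 1.983 and 1.978 in arf1D with EcFMT and 2.029 and 1.996 with R42L. It was 2.312 and 2.379 in hrc1D with EcFMT and 2.032 and 2.134 with R42L, so the lowest hrc1D library lay only just above the highest of arf1D. In NIP1_depl it was 2.866 and 2.701 with EcFMT and 2.581 and 2.588 with R42L. In RLI1_depl it was 3.872 and 4.442 with EcFMT and 3.838 and 4.160 with R42L. The RLI1_depl replicates with EcFMT differed by more than counting error, with intervals of 3.659 to 4.098 and 4.223 to 4.673. The replicates of MTF and of hrc1D with R42L did so too. Group means spanned 2.099-fold, from 1.980 ± 0.003 (SD, n = 2) in arf1D with EcFMT to 4.157 ± 0.403 in RLI1_depl with EcFMT. Per length, in TPM, the lowest ratio was close to parity, 1.009 ± 0.002, and the highest was 2.116 ± 0.205.

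YCR013C over YKL153W moved least, 1.701-fold over group means, and crossed parity. It was 1.096 and 1.113 in MTFi and 1.159 and 0.989 in MTF, where the replicates lay on either side of 1. It was 0.976 and 0.969 in arf1D with EcFMT, 0.989 and 0.975 with R42L, 1.344 and 1.381 in hrc1D with EcFMT and 1.401 and 1.334 with R42L. NIP1_depl had 1.263 and 1.2 with EcFMT and 1.087 and 1.135 with R42L, and RLI1_depl had 0.748 and 0.860 with EcFMT and 0.858 and 0.923 with R42L. YCR013C thus held more counts than YKL153W in every library of hrc1D, NIP1_depl and MTFi and fewer in every library of arf1D and RLI1_depl.

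**Figure D3:**
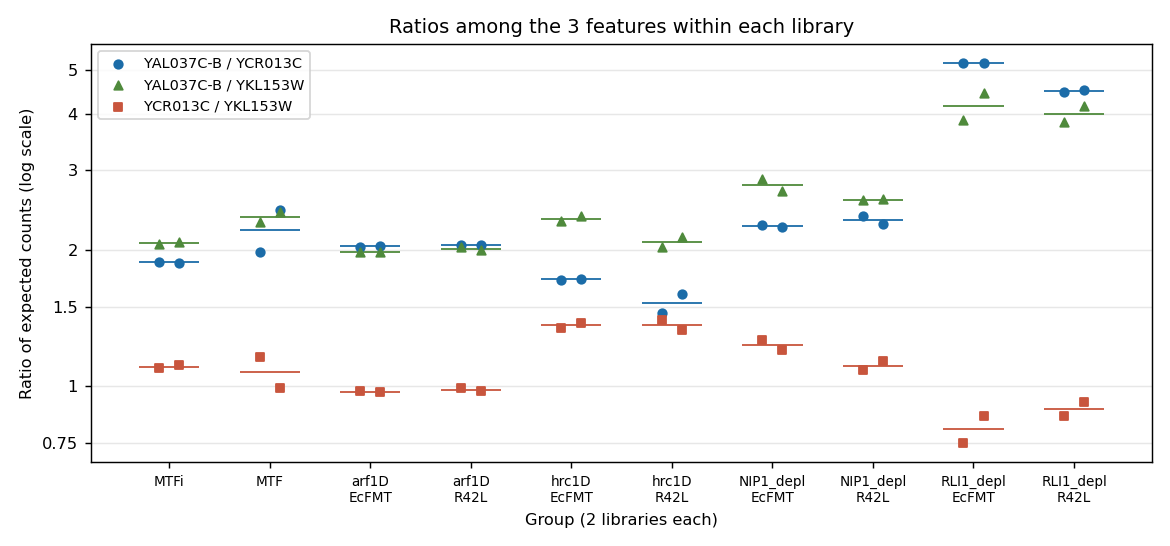
Ratios of expected counts between pairs of the 3 features (log axis) in each library of the 10 groups; points are libraries and lines are group means. Both ratios with YAL037C-B on top are highest in RLI1_depl, and YCR013C over YKL153W is highest in hrc1D and lowest in RLI1_depl.

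Among the 3 features alone, YAL037C-B made up 50.1% ± 0.0241 (SD, n = 2) of the summed counts in arf1D with EcFMT, YCR013C 24.6% ± 0.0755 and YKL153W 25.3% ± 0.0514. In RLI1_depl with EcFMT the shares were 69.69% ± 1.13, 13.48% ± 0.237 and 16.83% ± 1.36. In hrc1D with R42L they were 46.8% ± 1.36, 30.73% ± 1.23 and 22.47% ± 0.123, the highest part of YCR013C in any group.

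Each pair of strains was compared over 4 libraries a side, taking EcFMT and R42L libraries as replicates, and the 2-sided exact permutation test gave p = 0.0286 (0.0286 after Benjamini-Hochberg adjustment) in each of the 18 comparisons. That is the smallest p that 70 splits allow, and no pair of strains overlapped in any ratio. Such separation was common: among all 29646 ratios between 2 of the 244 features that averaged 50 counts or more and were at 0 in no library, 71.8% did not overlap between hrc1D and arf1D, 84.4% between NIP1_depl and arf1D and 80.6% between RLI1_depl and arf1D. The shares were 67.9% between NIP1_depl and hrc1D, 66.2% between RLI1_depl and hrc1D and 56% between RLI1_depl and NIP1_depl. The separation of the 3 features is therefore not particular to them, and the values below describe its size. YAL037C-B over YCR013C averaged 2.043 ± 0.008 (SD, n = 4) in arf1D. It averaged 1.623 ± 0.129 in hrc1D, 2.294 ± 0.056 in NIP1_depl and 4.830 ± 0.392 in RLI1_depl. The log2 ratio was 1.24 higher in RLI1_depl than in arf1D, a 2.358-fold difference, and 0.34 lower in hrc1D than in arf1D (a log2 difference of -0.34). YAL037C-B over YKL153W averaged 1.996 ± 0.023, 2.214 ± 0.159, 2.684 ± 0.133 and 4.078 ± 0.282 in the same order, with RLI1_depl 2.039-fold above arf1D. YCR013C over YKL153W averaged 0.977 ± 0.009, 1.365 ± 0.031, 1.171 ± 0.077 and 0.847 ± 0.073, 1.397-fold higher in hrc1D than in arf1D. Some of the smaller differences rested on the number of libraries. YAL037C-B over YKL153W between hrc1D and arf1D (log2 0.15) and YCR013C over YKL153W between RLI1_depl and arf1D (-0.21) reached an adjusted p = 0.0571 in the exact test without any 1 of the 4 arf1D libraries. The same held for YCR013C over YKL153W between NIP1_depl and hrc1D (-0.22) without any 1 of the hrc1D libraries, and for YAL037C-B over YKL153W between NIP1_depl and hrc1D (0.28) without NIP1_depl with EcFMT replicate 1.

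Across all features, edgeR's quasi-likelihood test on 1399 features, with TMM scaling factors and 1 mean per group, called each of the 3 features lower in all 6 comparisons between strains (the mean of both forms in each). Calls in the lower direction made up 16.8% of features for hrc1D minus arf1D, 21.8% for NIP1_depl minus arf1D, 21.8% for RLI1_depl minus arf1D, 19.9% for NIP1_depl minus hrc1D, 22.4% for RLI1_depl minus hrc1D and 18.9% for RLI1_depl minus NIP1_depl. In either direction 35.5, 62.4, 73.3, 45.6, 57.7 and 42.7% were called. The largest Benjamini-Hochberg adjusted p of the 18 was 1.16e-28 by edgeR, for YAL037C-B in RLI1_depl minus NIP1_depl.

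The sizes of these differences depended on the scaling. For hrc1D minus arf1D the log2 differences were -1.45 ± 0.07 (SE) for YAL037C-B, -1.12 ± 0.08 for YCR013C and -1.60 ± 0.08 for YKL153W with TMM factors, where the median feature was at 0.37. With library totals they were -0.34, 0.00 and -0.49, the median feature was at 1.29, and YCR013C was no longer called. For NIP1_depl minus arf1D, TMM gave -3.62 ± 0.08, -3.79 ± 0.08 and -4.05 ± 0.09 against a median of 1.19, and library totals gave -1.39, -1.56 and -1.82 against 3.16. For RLI1_depl minus arf1D, TMM gave -4.46 ± 0.08, -5.70 ± 0.09 and -5.49 ± 0.09 against a median of 1.77, and library totals gave -1.65, -2.89 and -2.68 against 4.35. Every one of these values lay below its median feature. Between TMM factors and library totals the distance to it moved by far less than the values did. Refitted on only the features outside RefSeq, with factors from them, the 3 features were at -2.61, -2.78 and -3.04 for NIP1_depl minus arf1D (median -0.08) and at -3.22, -4.46 and -4.25 for RLI1_depl minus arf1D (median 0.22). There the distance to the median, which covers only these features, was shorter than in the fit of all tested features.

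In the other pairs YCR013C had the lowest value of the 3. NIP1_depl minus hrc1D was -2.17 ± 0.08 for YAL037C-B, -2.67 ± 0.08 for YCR013C and -2.45 ± 0.08 for YKL153W with TMM factors (median 0.40), and -1.05, -1.56 and -1.33 with library totals (median 1.47). RLI1_depl minus hrc1D was -3.01 ± 0.08, -4.58 ± 0.09 and -3.89 ± 0.09 (median 0.68), and -1.31, -2.88 and -2.19 with library totals (median 2.36). RLI1_depl minus NIP1_depl was -0.84 ± 0.07, -1.91 ± 0.08 and -1.44 ± 0.08 (median 0.06), and -0.26, -1.33 and -0.86 with library totals (median 0.64). In each comparison with RLI1_depl, YCR013C had the lowest value of the 3 and YAL037C-B the least negative.

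**Figure D4:**
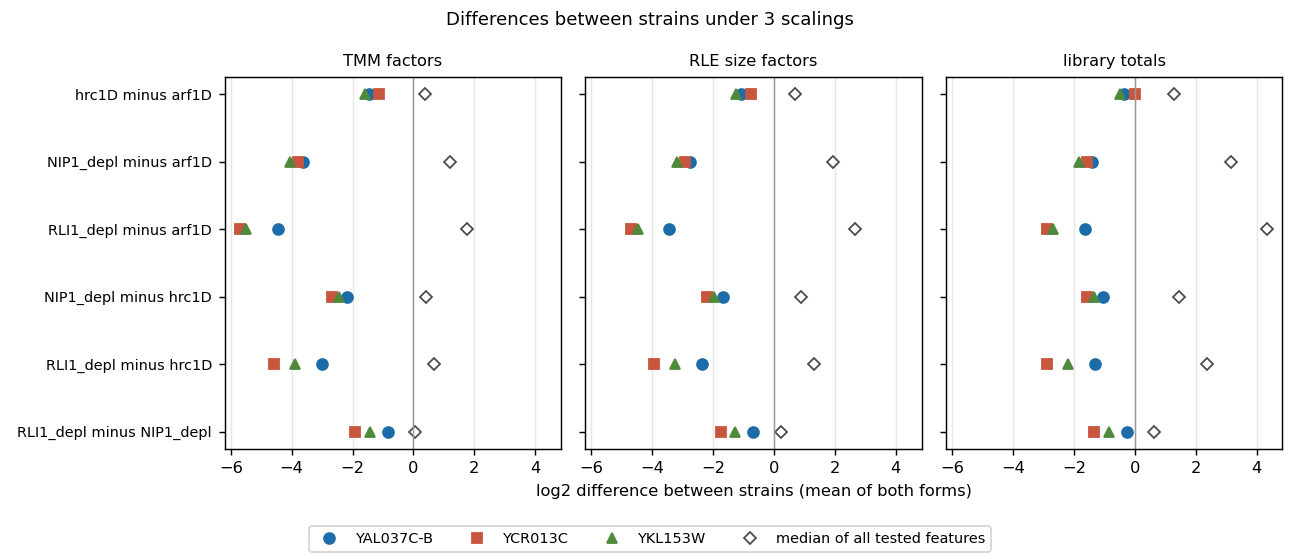
Log2 differences between strains (horizontal axis, mean of EcFMT and R42L) for the 3 features and the median of the 1399 features tested, under TMM factors, RLE size factors and library totals. The 3 features lie left of the median in every comparison and panel, and the whole pattern shifts right from TMM to library totals.

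The comparison of EcFMT with R42L asks whether the formylating enzyme and its R42L form differ in footprints. By edgeR on all 20 libraries with TMM factors, none of the 3 features passed in any strain. In arf1D the log2 differences EcFMT minus R42L were -0.02 ± 0.10 (SE) for YAL037C-B, -0.01 ± 0.11 for YCR013C and 0.00 ± 0.11 for YKL153W, each with an adjusted p = 1 by edgeR. In hrc1D they were -0.01 ± 0.10, -0.19 ± 0.11 and -0.18 ± 0.11 (adjusted p = 1, 0.884 and 0.884 by edgeR). In NIP1_depl they were 0.12 ± 0.10, 0.16 ± 0.11 and 0.01 ± 0.11 (adjusted p = 1 each by edgeR). In these 3 strains edgeR called 0 of 1399 features, 0%, and 39, 57 and 42 features had an unadjusted p under 0.05. DESeq2 also called 0 in each. The 95% interval for YCR013C in hrc1D ran from -0.40 to 0.02, so a log2 difference as large as -0.40 lay within the error.

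In RLI1_depl 48 features (3.43%) were called, and the 3 features were not among them. Their log2 differences were 0.31 ± 0.10 (SE) for YAL037C-B, 0.11 ± 0.11 for YCR013C and 0.26 ± 0.11 for YKL153W (adjusted p = 0.0684, 0.793 and 0.246 by edgeR). With library totals the values were 0.00, -0.20 and -0.05, so the direction for YCR013C and YKL153W turned with the scaling. The median feature moved as well, from 0.05 with TMM factors to -0.26 with library totals. Each of the 3 features lay above it under both scalings. DESeq2 called YAL037C-B at 0.17 (adjusted p = 0.0142), and so did edgeR on only the libraries of this strain, also at 0.17 (adjusted p = 0.0354). The TMM factors of this strain differed between forms, 2.66 and 2.73 with EcFMT against 3.33 and 3.34 with R42L, and so did the share on RefSeq ORFs, 16.02% ± 0.53 (SD, n = 2) against 20.38% ± 0.297. Their part in these differences was not tested. Over the 4 strains the mean differences were 0.10 ± 0.05, 0.02 ± 0.05 and 0.02 ± 0.05 (adjusted p = 0.649, 1 and 1 by edgeR, 5 features or 0.357% called). With library totals the means for YCR013C and YKL153W were -0.07 each, while the median feature moved from 0.07 to -0.01. An F test that the 4 within-strain differences are equal gave adjusted p = 0.665, 0.71 and 0.624 by edgeR, and it called 10 features, or 0.715%.

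MTF and MTFi, compared in the same fit of 20 libraries, gave 24 called features by edgeR (1.72%), 20 of them lower in MTF and none of them one of the 3. YAL037C-B was at -0.10 ± 0.10 (SE), YCR013C at -0.32 ± 0.11 and YKL153W at -0.29 ± 0.11 (adjusted p = 0.763, 0.106 and 0.214 by edgeR). The TMM factors of the MTFi replicates were 0.467 and 0.364, although YAL037C-B took 19.65 and 19.9% of these libraries, and the factors of MTF were 0.436 and 0.434. With library totals the log2 differences were -0.01, -0.23 and -0.20, and YCR013C and YKL153W were called (adjusted p = 0.00619 and 0.0409 by edgeR). With RLE size factors they were 0.11, -0.11 and -0.08, none called, so the direction for YAL037C-B turned. It turned too in a fit on only the 4 MTF and MTFi libraries, at 0.05 (adjusted p = 0.785 by edgeR). The calls also turned on single libraries. Without MTFi replicate 1 the differences were -0.26, -0.48 and -0.43 (adjusted p = 0.0301, 6e-07 and 1.56e-05 by edgeR), and without MTF replicate 1 YCR013C was at -0.45 (adjusted p = 0.0385 by edgeR).

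**Figure D5:**
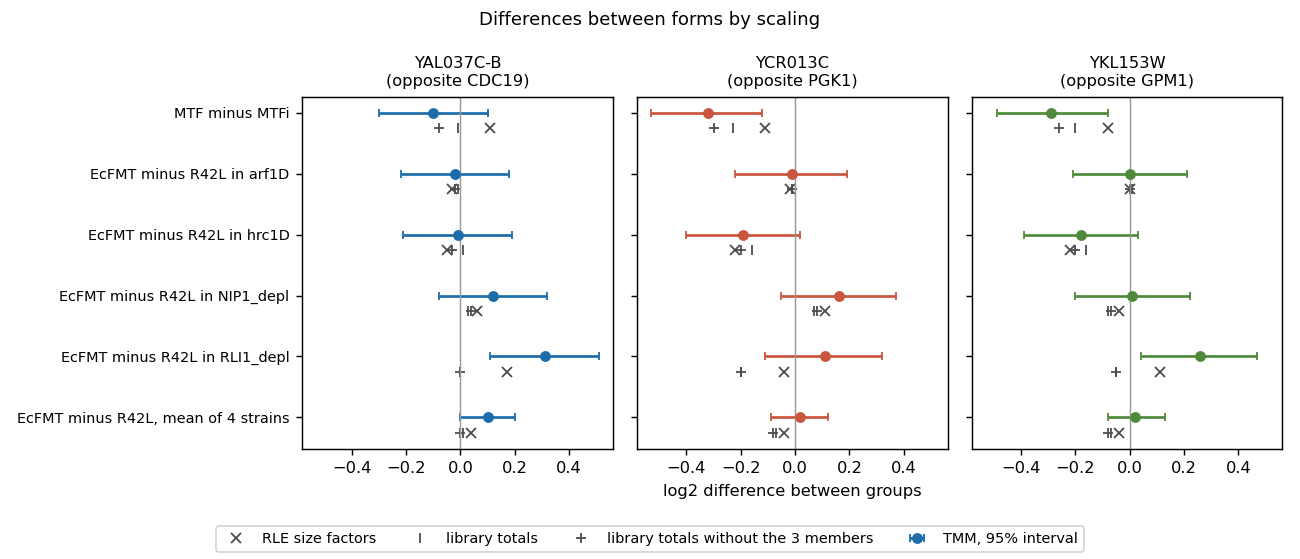
Log2 differences between forms (horizontal axis) for each of the 3 features; coloured points with bars are values and 95% intervals under TMM factors, and grey marks are the values under other scalings. Most intervals include 0, and the marks spread most in RLI1_depl and in MTF minus MTFi.

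The ratios gave the same comparison without scaling. YAL037C-B over YCR013C was 1.059-fold higher with EcFMT than with R42L over the 4 strains (log2 0.08, p = 0.0556 by a 2-sided exact permutation test within strains, 0.0833 adjusted over 3 ratios). YAL037C-B over YKL153W was 1.055-fold higher (log2 0.08, exact p = 0.0494, adjusted p = 0.0833). YCR013C over YKL153W was at 0.9965-fold (log2 -0.01, exact p = 0.907, adjusted p = 0.907). None passed after adjustment. The first ratio was higher with EcFMT in both libraries in hrc1D (log2 0.18) and RLI1_depl (0.20) and lower in arf1D (-0.01) and NIP1_depl (-0.04), each without overlap. The NIP1_depl difference was smaller than the gap between its R42L replicates (0.06), and the arf1D difference was of the size of such a gap (0.01). With 2 libraries a side no exact test within a strain can go below p = 0.333, which is the p that any separation without overlap gives. How many of all feature ratios separate between forms was not counted, so the separation is not read as particular to these ratios. Between MTF and MTFi the log2 differences of the 3 ratios were 0.23, 0.19 and -0.04 (exact p = 0.333, 0.333 and 1 over 6 splits, where 0.333 is the smallest possible).

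The features whose counts ran most like those of the 3 were found by the standard deviation of log2(feature over member) across the 20 libraries, which share depth and strain, among the same 244 features. This likeness is a description. YCR013C and YKL153W were nearest to each other, with an SD of 0.2513. For YAL037C-B the nearest were YDL228C (SD 0.2349), opposite SSB1, which encodes an Hsp70 chaperone bound to translating ribosomes, and YER023C-A (0.2697), whose opposite gene by name may be SRB4, PRO3 or YAT2. Next came YAL004W (0.3199), opposite the cytosolic Hsp70 gene SSA1, YOR277C (0.3238), opposite CAF20 or HEM4, and YPR059C (0.3451), opposite YMC1. YKL153W ranked 9 for YAL037C-B (SD 0.3836) and YCR013C ranked 21 (0.5606), against a median SD of 1.3537 over the 243 other features. For YCR013C the list went on with YDL228C (0.5307), YAL037C-B (0.5606), YER023C-A (0.6420) and YHL034W-A (0.6623), opposite RPL8A, SBP1 or VMR1, against a median of 1.7968. For YKL153W it went on with YAL037C-B (0.3836), YDL228C (0.4216), YHL034W-A (0.4400) and YER023C-A (0.4492), against 1.7008. YDL228C and YER023C-A were thus among the nearest 5 of each of the 3. Between replicates YER023C-A scattered more: its SD against YAL037C-B within groups was 0.3090, against 0.0820 for YDL228C.

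Other genes of glycolysis and ethanol fermentation could hardly be followed. Of a list of 22 such genes, the 3 opposite the features included, 18 held under 10 counts over all libraries, 6 held 0, and the highest was PGK1 with 28. Their sum was 115 counts, 0.002303% of all, and 0 of the 22 entered the test under their own names. For 17 of the 22 no feature outside RefSeq neighbours the gene on the other strand by name. Beside YAL037C-B, YCR013C and YKL153W, the features so placed were YCL041C near GLK1 (a glucokinase gene), with 41 counts, and YOL085W-A near ADH1 (the main alcohol dehydrogenase gene), with 176. YOL085W-A ran opposite to the 3 features: arf1D had 3 counts, hrc1D 14, NIP1_depl 93 and RLI1_depl 64, or 1.762, 16.05, 165 and 169.2 per 1e+06 counts. Its log2 difference was 5.16 ± 0.75 (SE) for NIP1_depl minus arf1D (adjusted p = 3.11e-11 by edgeR) and 4.67 ± 0.80 for RLI1_depl minus arf1D (adjusted p = 2.39e-08 by edgeR). In MTFi it had 2 counts and in MTF 0. The rise between strains was not particular to YOL085W-A. For NIP1_depl minus arf1D edgeR called 568 of 1399 features higher (median 1.19), and for RLI1_depl minus arf1D 720 (median 1.77). Per 1e+06 counts YCL041C also rose: 7.636 in arf1D, 14.2 in NIP1_depl and 23.79 in RLI1_depl, from 13, 8 and 9 counts.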

How the data were processed

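Ribosome footprints of 20 yeast libraries were deposited as 1 table each. Per the submitters' processing notes, STAR 2.7.2b, RSEM 1.2.31 and genome build R64 were used; no source used here states the strand setting. The authors deposited RSEM expected counts, unscaled, and TPM per feature. Of 7127 features, 6047 matched a RefSeq table by locus tag; 6691 were kept as ORF features, of which 683 were not in RefSeq. Mean fragment length was computed as 1 plus length minus the effective length that the authors deposited, an RSEM estimate listed per feature beside the posterior standard deviation of the count.

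Expected counts were rounded for edgeR 4.0.16 (R 4.3.3): quasi-likelihood fit with robust prior, 10 groups in 1 fit with 10 residual degrees of freedom, TMM factors (0.364 to 3.34), 1399 features kept by filterByExpr (minimum count 10; 437 not in RefSeq), Benjamini-Hochberg adjustment over all of them and a threshold of 0.05. The common biological coefficient of variation was 0.11. The fit pools spread over features, and YAL037C-B, YCR013C and YKL153W got nearly the same coefficient, 0.0875, 0.0883 and 0.0884. Their edgeR p-values, SEs and intervals thus rest largely on this pooled spread and little on their own replicates. Ratios used unrounded counts and 2-sided exact permutation tests. Intervals on ratios of counts assume Poisson counts. The fit and the permutation test within strains were run on simulated data for EcFMT against R42L only. The comparisons between strains were not simulated. Alternatives were RLE factors, library totals, DESeq2 1.42.0, no filter, all deposited features, features not in RefSeq, only the libraries compared, a replicate block, ratios of TPM, rounded counts and leaving out each library; totals without the 3 features and a crossed block were added after seeing the data.

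The members, the gene list, the 7 ribosomal protein features and the tests were chosen with earlier results of these data known. Named besides the members were the genes opposite them, for each member the 5 features of smallest SD of the log2 ratio, the gene list, and its opposite features with at least 50 counts (YCL041C was added after its value was seen). Opposite genes were read from the order and strand in systematic names. Flanking genes were taken from the RefSeq table.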

Additional observations from a re-analysis of the deposited data

Results flagged for a closer look

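The difference between EcFMT and R42L in the ratio of YAL037C-B to YCR013C differed in sign between strains, without overlap of the libraries. It was lower with EcFMT in arf1D (log2 -0.01) and NIP1_depl (-0.04) and higher in hrc1D (0.18) and RLI1_depl (0.20). The arf1D difference minus that of hrc1D was -0.19, and minus that of RLI1_depl -0.21. The hrc1D difference minus that of NIP1_depl was 0.22, and the NIP1_depl difference minus that of RLI1_depl was -0.25. For YAL037C-B over YKL153W, EcFMT was lower in arf1D (-0.02) and higher in hrc1D (0.17) and NIP1_depl (0.11), so that arf1D minus hrc1D was -0.19 and arf1D minus NIP1_depl -0.13. These 6 differences were picked because EcFMT lay wholly above R42L in a strain of the pair and wholly below it in the other. How many other ratios of features would be picked in this way was not counted. That choice fixes the exact permutation p at 0.0556, the smallest that 36 arrangements can give. The p is thus no test of whether the form difference varies between strains, and the design cannot bring it under 0.05. In hrc1D the R42L replicates lay 0.14 apart in the first ratio on the log2 scale, and the arf1D differences are of the size of the gap between replicates (0.01 and 0.02). In NIP1_depl the difference in the first ratio (-0.04) was smaller than the gap between the R42L replicates (0.06).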

How the results depend on the processing

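Depth limits the own-name genes most, and it widens the counting intervals of the ratios most in RLI1_depl. With EcFMT, the RLI1_depl replicates also differed by more than counting error in YAL037C-B over YKL153W. With 2 libraries a group no test within a strain can stand on the ratios. Under every setting of the fits the strain comparisons of the 3 features kept direction and call, except YCR013C, hrc1D minus arf1D, at 0.00 with library totals. Against the 7 features opposite ribosomal protein genes, however, YAL037C-B was not lower in RLI1_depl (mean ratio 0.3214) than in NIP1_depl (0.3109). All 51 values of ratios under TPM, rounded counts or the block stayed on their side. The differences between forms are near 0, and many changed sign without a call. The causes were not tested.

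MTF minus MTFi with library totals was -0.23 for YCR013C and -0.20 for YKL153W, and with totals without the 3 features -0.30 and -0.26, all called. YAL037C-B there was 0.11 with RLE factors and DESeq2, 0.02 on features not in RefSeq and 0.05 on only the libraries compared. In RLI1_depl, EcFMT minus R42L of YCR013C was -0.04 with RLE and DESeq2, -0.03 on only the libraries compared and -0.17 on features not in RefSeq. It was -0.20 with totals and -0.20 with totals without the 3 features (called, adjusted p = 0.045 by edgeR). The median feature in RLI1_depl was at -0.26 with both kinds of totals, so this call did not place YCR013C below it. There YKL153W was -0.05 with both kinds of totals and -0.02 on features not in RefSeq, and YAL037C-B was 0.17, called, with DESeq2 and on only the libraries compared. In NIP1_depl YKL153W was -0.04 with RLE, DESeq2 and only the libraries compared, -0.08 with totals and without the filter, -0.07 with totals without the 3 features and -0.03 on features not in RefSeq. In hrc1D YAL037C-B was 0.01 with totals and, without the filter, 0.23, with YCR013C at 0.05 and YKL153W at 0.06. In arf1D YAL037C-B and YCR013C were 0.09 and 0.10 without the filter. The mean over 4 strains of YCR013C and YKL153W was -0.04 and -0.04 with RLE and DESeq2, -0.07 and -0.07 with totals, -0.08 and -0.08 with totals without the 3 features, and -0.08 and -0.07 on features not in RefSeq. DESeq2's likelihood ratio for unequal differences was 15.18 for YKL153W (adjusted p = 0.0252).

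Leaving out 1 library moved MTF minus MTFi from -0.26 to 0.13 for YAL037C-B, -0.48 to -0.09 for YCR013C and -0.43 to -0.06 for YKL153W. EcFMT minus R42L ran from -0.01 to 0.08 for YAL037C-B in hrc1D, -0.05 to 0.01 for YCR013C in arf1D, -0.05 to 0.03 for YKL153W in NIP1_depl and -0.01 to 0.05 for the mean of both YCR013C and YKL153W. Log2 ratios ran from 0.11 to 0.19 for YAL037C-B over YKL153W, hrc1D minus arf1D, 0.24 to 0.31 for NIP1_depl minus hrc1D, and -0.25 to -0.15 for YCR013C over YKL153W, RLI1_depl minus arf1D, -0.26 to -0.19 for NIP1_depl minus hrc1D and -0.03 to 0.02 for EcFMT minus R42L. A library left alone in its group was taken to vary as the others do.

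Counts of called features moved over 1.5 times as follows. MTF minus MTFi gave 45 with RLE, 39 with totals and 9 without the filter, against 24, and with a library left out 38 without MTFi replicate 1 and 15 without MTF replicate 2. EcFMT minus R42L in RLI1_depl gave 24 with DESeq2, 9 without the filter and 27 on features not in RefSeq, against 48, and 11 to 17 with a library left out. The mean of 4 strains gave 0 to 26 over the settings, against 5, and the F test 1 to 30, against 10; with a library left out they gave 0 to 7 and 0 to 9. The mean fell to 0 without hrc1D with R42L replicate 1 and without either NIP1_depl library with R42L, and the F test to 0 without RLI1_depl with EcFMT replicate 1. Against 0 features within arf1D, hrc1D and NIP1_depl, leaving out a library gave up to 1, 2 and 1, and a fit on only the NIP1_depl libraries gave 1. RLI1_depl minus NIP1_depl gave 302 with DESeq2, against 598, and the 6 strain pairs gave 233 to 354 on the fewer features not in RefSeq. Of the 1399 features of the main fit, 437 were not in RefSeq. Lower counts of calls on those features therefore do not show a smaller share called.

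Same-numbered replicates did not deviate together: the correlations were 0.03 for MTF and MTFi and -0.13, -0.07, -0.18 and -0.04 for the forms in arf1D, hrc1D, NIP1_depl and RLI1_depl. The replicate block changed no call on the 3 features or their ratios; YAL037C-B in RLI1_depl was at 0.31 with it (adjusted p = 0.0811 by edgeR), and MTF minus MTFi gave 22 called features. A crossed pairing in arf1D and NIP1_depl called 0 and 0 features.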
